A study of Mus musculus with 9 samples.

Results

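The 10 genes described here encode small leucine-rich proteoglycans, SLRPs, of the mouse. They were chosen by name, as fibromodulin (Fmod) and its relatives lumican (Lum), decorin (Dcn), biglycan (Bgn), Prelp, osteoglycin (Ogn), asporin (Aspn), osteomodulin (Omd), podocan (Podn) and keratocan (Kera). All 10 are among the 52780 genes of the count table, and 9 of them, all but Kera, passed the filter on low counts that 19545 genes passed. The samples came from C2C12 cells, an immortal line of mouse myoblasts that fuse into myotubes when serum is lowered. There were 3 samples each of control cells (si Ctrl, labelled wild type), of cells given siRNA against the macroH2A1.1 isoform (si mH2A1.1) and of cells given siRNA against macroH2A1.2 (si mH2A1.2). The 3 groups share the line, the switch to horse serum and collection at day 4 of differentiation, and the siRNA was used at 10 nM in repeated transfections. The labels do not say which of the siRNAs listed for an isoform a sample received. The study describes the replicates of its RNA data as independent and biological, while the labels do not say whether they were separate cultures. P-values measure the spread between these samples. The question addressed was whether the other SLRP genes followed the swing of Fmod, which fell with si mH2A1.1 and rose with si mH2A1.2. Because Fmod was picked for that pattern, its own values are given as a description.

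SLRPs are secreted proteins with a horseshoe of leucine-rich repeats, and most carry chondroitin, dermatan or keratan sulfate chains. They bind collagen fibrils and set how thick and how regular these become, and several also hold growth factors such as TGF-β in the matrix. In skeletal muscle they lie in the connective tissue around the fibres, decorin being the best known of them there, and C2C12 cells secrete several as they differentiate. Class I holds Dcn, Bgn and Aspn, class II holds Fmod, Lum, Prelp, Omd and Kera, class III holds Ogn, and Podn stands apart in a further class. Among proteins translated from the annotated transcripts, Lum was the closest relative of Fmod, identical at 47.5% of 335 aligned residues. Prelp followed at 42.1%, Kera at 40.4%, Omd at 37.8% and Podn at 33.3%, and Dcn, Bgn, Ogn and Aspn lay between 28.5% and 29.1%.

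In the GRCm38 assembly 8 of the 10 genes lie in 3 clusters. Prelp (chromosome 1, 133910304 to 133921414, minus strand) and Fmod (134037254 to 134048277, plus strand) are separated by 115.8 kb. Dcn (chromosome 10, 97479609 to 97518143), Lum (97565128 to 97572703) and Kera (97606879 to 97613692) follow each other on the plus strand. Aspn (chromosome 13, 49544443 to 49567565), Omd (49582462 to 49592822) and Ogn (49608046 to 49624501) do the same. Podn (chromosome 4, 108014791 to 108096445, minus strand) and Bgn (chromosome X, 73483602 to 73495933, plus strand) stand alone. The letters before the start site of 4 of these genes are shown, Fmod with the widest swing, Prelp as its neighbour, and Aspn and Ogn as the outer members of the chromosome 13 cluster. Each line is the RefSeq sequence (GRCm38.p6) of the 250 bases before the start, 5′ to 3′ on the gene's strand, and capitals mark a TATAAA or CAGAC match on either strand. The starts are those of RefSeq, and for Prelp and Ogn they differ from the gene positions given above.
Fmod, chr1:134037004-134037253, plus strand: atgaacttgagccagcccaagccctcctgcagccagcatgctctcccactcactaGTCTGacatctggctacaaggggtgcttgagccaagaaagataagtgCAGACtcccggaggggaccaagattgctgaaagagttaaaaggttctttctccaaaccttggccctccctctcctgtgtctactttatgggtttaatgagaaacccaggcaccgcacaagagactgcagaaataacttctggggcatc
Prelp, chr1:133921402-133921651, minus strand: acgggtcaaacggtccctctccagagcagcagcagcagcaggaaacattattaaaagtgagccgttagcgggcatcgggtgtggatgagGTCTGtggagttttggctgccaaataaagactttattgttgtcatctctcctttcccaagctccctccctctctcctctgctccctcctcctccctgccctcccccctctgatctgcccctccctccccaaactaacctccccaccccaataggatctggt
Aspn, chr13:49544193-49544442, plus strand: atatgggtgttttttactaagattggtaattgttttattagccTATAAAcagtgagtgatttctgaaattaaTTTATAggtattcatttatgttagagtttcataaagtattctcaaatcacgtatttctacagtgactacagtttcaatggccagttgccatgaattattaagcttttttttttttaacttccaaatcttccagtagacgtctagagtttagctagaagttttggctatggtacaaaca
Ogn, chr13:49607765-49608014, plus strand: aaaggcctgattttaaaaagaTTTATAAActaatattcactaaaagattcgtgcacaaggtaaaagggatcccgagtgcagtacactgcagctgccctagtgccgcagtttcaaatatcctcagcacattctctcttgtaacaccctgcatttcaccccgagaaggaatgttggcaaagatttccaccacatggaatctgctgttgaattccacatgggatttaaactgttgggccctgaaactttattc

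RefSeq windows were found for 8 of the 10 genes, all but Dcn and Lum, and Podn had 2 windows. The windows of Podn and Kera lie inside the gene positions given above. CAGAC, the short Smad element, occurred at 195 and 148 bases before the start of Fmod and 161 bases before that of Prelp. No other window of the 10 genes held these letters, which are described here as letters and not as sites. They are present in 42.2% of the 32851 mouse windows of this length. TATAAA, the TATA box, began 207 and 178 bases before the start of Aspn and 229 and 227 bases before that of Ogn, where a match on each strand overlaps. It was found in 12.4% of all windows. The E-box CANNTG, the motif of myogenic factors, was in the windows of Fmod, Bgn, Ogn, Aspn and Podn and in 66.2% of all windows, and the AP-1 site TGANTCA was in none of the windows shown and in 6.75% of all. The Fmod window held 2 CpG dinucleotides, that of Prelp 5, that of Ogn 4 and that of Aspn 2, against a median of 6.

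Between 36924252 and 42223108 counts were assigned to genes in each library. H2afy, which encodes both isoforms, was counted as a whole gene, so its counts cannot tell the isoforms apart. In CPM (counts divided by library size in units of 1000000, scaled for composition by TMM), it stood at 56.3, 62.4 and 61.0 in controls. It was at 38.8, 30.0 and 30.9 CPM in the si mH2A1.1 samples and fell there (log2 fold change -0.85 ± 0.11, adjusted p = 0.00331). With si mH2A1.2 it was at 46.8, 47.2 and 43.2 CPM, below all controls, and did not pass (-0.39 ± 0.11, adjusted p = 0.108). The myotube markers were expressed in all 9 libraries, summing to between 11555 and 17463 CPM over 10 genes, of which 3 were called lower with each knockdown (4.93% of all tested genes with si mH2A1.1 and 0.982% with the other). All 8 interferon-response genes listed were called higher with si mH2A1.1, as were 6.18% of all tested genes. Their summed level there was 307, 181 and 606 CPM in replicates 1, 2 and 3. It was 50.0 to 61.2 CPM in controls and 53.3 to 74.3 CPM with si mH2A1.2. Mki67, a proliferation marker, was at 250, 125 and 184 CPM in the si mH2A1.1 replicates and at 82.6 to 124 CPM in controls. The part of these shifts in the results on SLRP genes was not tested.

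Per kilobase of transcript, biglycan was the most abundant SLRP transcript of control myotubes, at 595 ± 190 CPM per kb (SD, n = 3 here and for all group means). Ogn followed at 298 ± 93.9 and Dcn at 187 ± 27.1 CPM per kb. These 3 genes made up most of the family's signal. Aspn reached 45.3 ± 20.0, Prelp 18.8 ± 0.744 and Lum 6.55 ± 1.31 CPM per kb. Omd, at 1.23 ± 0.337, and Fmod, at 1.02 ± 0.729 CPM per kb, could not be ordered. Omd was higher in control replicates 1 and 3, and Fmod in replicate 2. Podn was lowest of the tested genes, at 0.174 ± 0.0859 CPM per kb. Kera, known from the cornea, had 1 count in control replicate 1 and 0 in the other 8 libraries, which is under the floor of 3 counts in a library used here (0.0691 to 0.0826 CPM). The length used was that of the longest protein-coding transcript. With the union of all annotated exons Ogn came before Bgn in controls, at 298 against 236 CPM per kb.

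With si mH2A1.1, 7 of the 8 tested SLRP genes other than Fmod fell, all but Dcn, at an adjusted p of 0.05 or less (edgeR quasi-likelihood test, Benjamini-Hochberg over all tested genes). Of all tested genes, 4.93% were called lower in this comparison. The median log2 fold change of these 8 genes was -1.76, and that of all tested genes was within 0.01 of 0 in each comparison. With si mH2A1.2, none of the 8 was called by the same fit, in which 1.37% of all genes were called higher. At an unadjusted p under 0.05 there were 4, Dcn, Prelp, Omd and Podn, all higher, where 8.18% of all genes were higher. With the replicate number as a block edgeR called 1 of the 8, Omd (2.90% of all genes higher), as did DESeq2 (3.46%). With only the 6 samples of the comparison edgeR called 3, Dcn, Prelp and Omd (1.15%). The 8 genes had a median of 0.60. Between the knockdowns, in the fit of all 9 samples, 7 of the 8 were higher with si mH2A1.2 (again all but Dcn). The 8 genes had a median of 2.48 on the log2 scale there, where 10.5% of all genes were called higher.

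**Figure D1:**
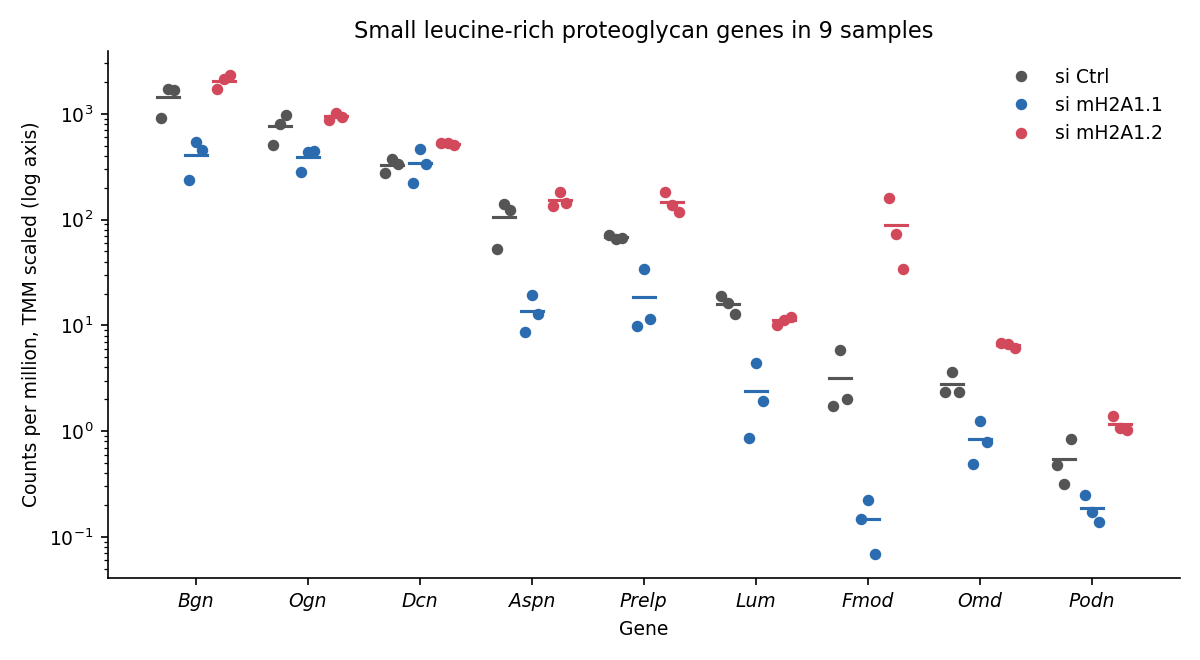
Level of 9 SLRP genes in each of the 9 samples, in CPM on a log axis, with points for samples and a bar for the mean of each group; Kera, with 1 count in all, is left out. The si mH2A1.1 points lie below all control points for every gene but Dcn, and Fmod spans the widest range, from 0.0691 to 162 CPM.

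Fibromodulin, a class II SLRP that binds collagen I and takes part in its cross-linking, had 65, 218 and 78 counts in the control libraries (1.74, 5.81 and 2.01 CPM). It had 6, 9 and 3 counts with si mH2A1.1 (0.148, 0.222 and 0.0691 CPM) and 5874, 2787 and 1265 counts with si mH2A1.2 (162, 72.7 and 34.0 CPM). The 3 groups did not overlap. Against controls the estimates on the log2 scale were -4.43 ± 0.91 (SE) in the si mH2A1.1 samples and 4.81 ± 0.62 in the si mH2A1.2 samples. Between the knockdowns the estimate was 9.24 ± 0.86, the largest of all tested genes there. Replicates differed widely as well, with control replicate 2 at 3.34 times replicate 1 and si mH2A1.2 replicate 1 at 4.76 times replicate 3. Among 14381 tested genes of at least 1 CPM, the SD of log2 CPM of Fmod was at the 99.3rd percentile in controls and the 99.5th with si mH2A1.2. When each sample was left out in turn, the first estimate stayed between -4.85 and -3.67 and the second between 4.06 and 5.57.

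Lumican, the nearest relative of Fmod, which competes with it for the same stretch of collagen, was at 19.1, 16.3 and 12.7 CPM in controls. It dropped to 0.864, 4.42 and 1.94 CPM with si mH2A1.1 and was at 10.0, 11.3 and 12.1 CPM with si mH2A1.2. All samples of both knockdowns lay below all controls. The fall with si mH2A1.1 was 6.66-fold (log2 fold change -2.74 ± 0.43, adjusted p = 0.00608). For si mH2A1.2 it was estimated at -0.52 ± 0.40 on that scale (adjusted p = 0.584), with a 95% interval from -1.41 to 0.36, the only negative estimate among the tested SLRP genes in that comparison. Between the knockdowns it was 4.63-fold higher with si mH2A1.2 (adjusted p = 0.00629).

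Prelp, which anchors basement membranes to the connective tissue beneath, was tight in controls, at 70.9, 65.6 and 67.3 CPM. It was at 9.93, 34.0 and 11.6 CPM with si mH2A1.1, all below the controls, and at 182, 137 and 119 CPM with si mH2A1.2, all above them. The drop for si mH2A1.1, a log2 fold change of -1.88 ± 0.39, passed (adjusted p = 0.0176). This call was lost without control replicate 2 (adjusted p = 0.0548), without si mH2A1.1 replicate 1 (0.0584) and without si mH2A1.1 replicate 3 (0.0679). The rise for si mH2A1.2, 1.102 ± 0.38 on the log2 scale, did not pass (adjusted p = 0.180), though it did with only the 6 samples of that comparison in the model (0.0236) or without si mH2A1.1 replicate 2 (0.0132). Prelp was 7.88-fold higher with si mH2A1.2 than with si mH2A1.1 (adjusted p = 0.00116).

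Osteomodulin, a keratan sulfate SLRP of mineralised tissue, was scarce, with 88, 137 and 90 counts in controls (2.36, 3.65 and 2.32 CPM). It had 20, 51 and 34 counts with si mH2A1.1 (0.494, 1.26 and 0.783 CPM) and 245, 257 and 228 counts with si mH2A1.2 (6.74, 6.71 and 6.12 CPM). As for Fmod and Prelp, the groups did not overlap and followed the same order. Against controls it fell in the si mH2A1.1 samples (log2 fold change -1.71 ± 0.31, adjusted p = 0.0108). The estimate for si mH2A1.2, 1.23 ± 0.29, missed the threshold (adjusted p = 0.0577). It passed with the replicate number as a block (1.28, adjusted p = 0.0200), and the numbers were taken to pair these groups. It also passed with DESeq2 (0.00103), with no filter on low counts (0.0183), with only the 6 samples of the comparison (0.0340), without si mH2A1.1 replicate 1 (0.0328) and without si mH2A1.1 replicate 2 (0.0339). Omd was 7.69-fold higher with si mH2A1.2 than with si mH2A1.1 (adjusted p = 0.000408).

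Of the class I genes, biglycan, which binds collagen and also signals through Toll-like receptors when released, stood at 909, 1731 and 1676 CPM in controls. It was at 236, 538 and 460 CPM with si mH2A1.1 and at 1702, 2144 and 2346 CPM with si mH2A1.2. The si mH2A1.1 samples lay below all others, while si mH2A1.2 replicate 1 fell among the controls. The fall was 3.50-fold (log2 fold change -1.81 ± 0.32, adjusted p = 0.00947). The estimate for si mH2A1.2 against controls was 0.52 ± 0.31 (adjusted p = 0.463, 95% interval -0.17 to 1.21), and the difference between the knockdowns was 2.33 ± 0.33 (adjusted p = 0.00137).

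Asporin binds collagen and restrains TGF-β. It was at 52.9, 141 and 122 CPM in controls and at 8.69, 19.4 and 12.7 CPM with si mH2A1.1, without overlap. Its log2 fold change was -2.96 ± 0.38, a 7.77-fold fall (adjusted p = 0.00290). With si mH2A1.2 it was at 133, 184 and 144 CPM, so that replicate 1 lay within the controls, and the log2 fold change of 0.54 ± 0.35 did not pass (adjusted p = 0.494). Aspn was 11.3-fold higher with si mH2A1.2 than with si mH2A1.1 (adjusted p = 0.000428).

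Decorin, which binds collagen and TGF-β, did not follow. It was at 278, 372 and 336 CPM in controls and at 221, 469 and 337 CPM with si mH2A1.1, where its lowest and highest samples enclosed the controls. The log2 fold change was 0.06 ± 0.22 (adjusted p = 0.886), and its 95% interval of -0.44 to 0.56 held none of the falls estimated for the other members. With si mH2A1.2 it was at 525, 528 and 504 CPM, above all other samples, at a log2 fold change of 0.66 ± 0.23 that did not pass (adjusted p = 0.177). It passed with only the 6 samples of that comparison (0.0454). Between the knockdowns the log2 fold change was 0.60 ± 0.22 (adjusted p = 0.0808). That difference passed with DESeq2 (0.0433), with no filter on low counts (0.0426) and without si mH2A1.1 replicate 2 (0.01004), the sample in which Dcn was highest in its group.

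Osteoglycin, the class III member, also called mimecan, showed the smallest of the falls that passed. It was at 508, 804 and 985 CPM in controls, 282, 432 and 450 CPM with si mH2A1.1, and 879, 1026 and 931 CPM with si mH2A1.2. Samples given si mH2A1.1 lay below the controls, and those given si mH2A1.2 overlapped them. For si mH2A1.1 the log2 fold change was -0.98 ± 0.24 (adjusted p = 0.0298). This call was lost without control replicate 2 (0.0942) or 3 (0.0909) and without si mH2A1.1 replicate 1 (0.101) or 3 (0.0660). The si mH2A1.2 estimate was 0.30 ± 0.24 (adjusted p = 0.597), and Ogn was 2.44-fold higher there than with si mH2A1.1 (adjusted p = 0.00542).

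Podocan, which binds collagen and is known from smooth muscle, had 18, 12 and 33 counts in controls, 10, 7 and 6 with si mH2A1.1 and 51, 41 and 38 with si mH2A1.2. Though the counts were low, the groups did not overlap. On the log2 scale it fell by 1.56 ± 0.42 for si mH2A1.1 (adjusted p = 0.0420). For si mH2A1.2 the estimate of 1.07 ± 0.36 did not pass (adjusted p = 0.172). The first call was lost with only the 6 samples of the comparison (0.0645) and on leaving out 7 of the 9 samples in turn, with adjusted p values from 0.0551 to 0.135, and it stood only without control replicate 2 or si mH2A1.2 replicate 1. Between the knockdowns Podn was 6.19-fold higher with si mH2A1.2 (adjusted p = 0.00208). Podn lies across Scp2 on the same strand but shares no exon base with it.

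**Figure D2:**
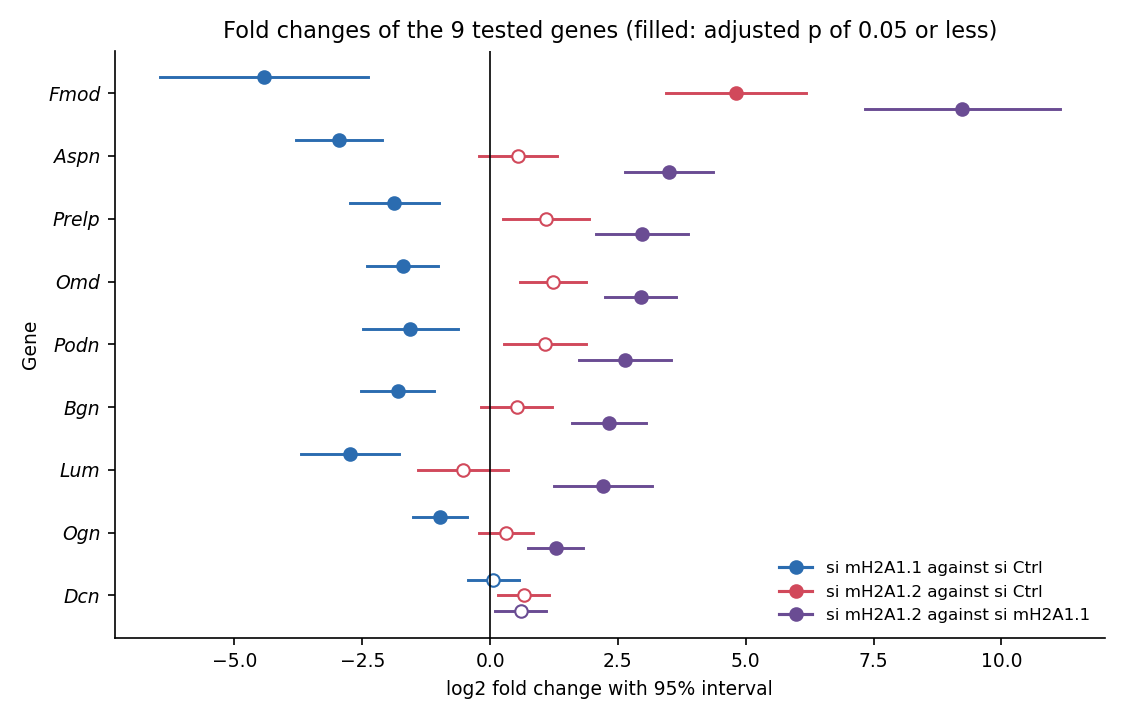
log2 fold changes of the 9 tested genes in 3 comparisons, with 95% intervals from the edgeR fit; filled points have an adjusted p of 0.05 or less. Blue points (si mH2A1.1 against si Ctrl) lie left of 0 for all but Dcn, and of the red points (si mH2A1.2 against si Ctrl) only that of Fmod, at 4.81, is filled.

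Lum, Bgn, Aspn and Omd kept their fall with si mH2A1.1 with each of the 9 samples left out in turn, and the 7 calls of the others between the knockdowns were kept each time too. By plain order, all 3 si mH2A1.1 samples lay below all 3 controls for 7 of the 8 genes other than Fmod, as they did for 16.7% of all tested genes. All 3 si mH2A1.2 samples lay above the controls for 4 of the 8, Dcn, Prelp, Omd and Podn (11.7% of all genes), and below them for Lum (10.8%). Between the knockdowns all 8 lay higher with si mH2A1.2, against 19.4% of all tested genes, with 20.3% lying lower. An exact permutation test of 3 against 3 samples cannot go below 0.1, 2-sided, so it adds nothing for a gene taken alone. In bulk samples, fewer cells of a type and less RNA per cell cannot be told apart. Replicate 1 of si mH2A1.1 was the lowest of its group for 7 of the 9 tested genes, all but Fmod and Podn, and it also had the highest Mki67 level of the 9 samples. Without it, 4 of the 7 genes other than Fmod were still called lower, Lum, Bgn, Aspn and Omd, in a fit that called 222 of all tested genes lower. The same 4 were called lower without si mH2A1.1 replicate 3, in which the interferon-response genes were highest, in a fit that called 208 lower. The interferon sums of si mH2A1.1 replicates 1 and 2, 307 and 181 CPM, were still above all controls (at most 61.2 CPM). The part of either shift in the falls was not tested.

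Summed per kilobase, the 10 genes stood at 783, 1329 and 1346 CPM per kb in controls, 340, 678 and 567 with si mH2A1.1, and 1511, 1734 and 1733 with si mH2A1.2. The 3 groups did not overlap in this sum. Bgn made up 51.1% ± 2.95 of it in controls, 31.7% ± 2.65 with si mH2A1.1 and 51.2% ± 4.70 in si mH2A1.2 samples. The share of Dcn moved the other way, from 16.8% ± 3.06 to 36.7% ± 2.79 with si mH2A1.1, where it became the largest. With si mH2A1.2 it was 17.9% ± 1.67. Ogn held 25.8% ± 2.51, 29.3% ± 3.97 and 22.2% ± 1.13 in the 3 groups. Fmod made up 0.0864% ± 0.0479 of the sum in controls, 0.00946% ± 0.00511 with si mH2A1.1 and 1.80% ± 1.46 in si mH2A1.2 samples. Its rank among the 10 was 8, 7 and 8 in the control samples, 9, 8 and 9 with si mH2A1.1, and 5, 6 and 6 with si mH2A1.2. By exon-union lengths its mean held rank 8 both in controls and with si mH2A1.1. Even at its highest, in si mH2A1.2 replicate 1, Fmod reached 3.43% of the family's sum. With exon unions as lengths Ogn, not Dcn, was largest with si mH2A1.1, at 53.0%, and Fmod with si mH2A1.2 made up 2.97%.

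**Figure D3:**
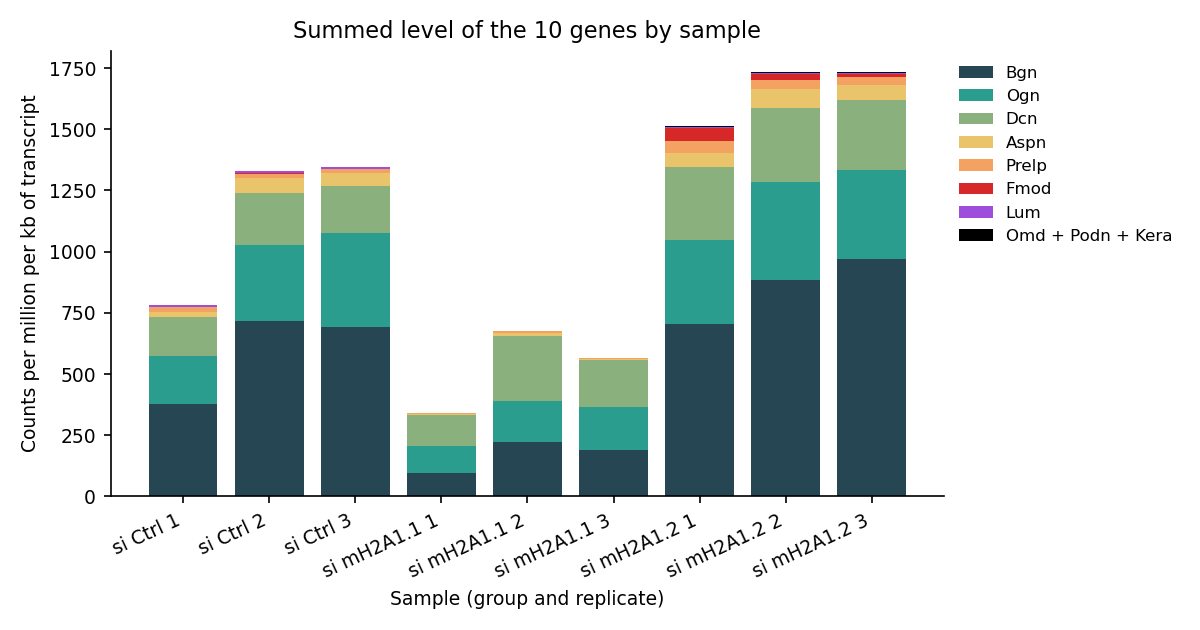
Summed level of the 10 SLRP genes in each sample, in CPM per kb of the longest protein-coding transcript, stacked by gene. Sums are 340 to 678 with si mH2A1.1, 783 to 1346 in controls and 1511 to 1734 with si mH2A1.2, and Bgn, Ogn and Dcn fill most of every bar.

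Replicate spread differed from gene to gene. The SD of log2 CPM in controls ran from 0.06 for Prelp and 0.21 for Dcn to 0.77 for Aspn and 0.93 for Fmod. With si mH2A1.1 it was above 0.5 for 7 of the 8 SLRP genes of at least 1 CPM, highest for Lum at 1.14 and lowest for Ogn at 0.37. With si mH2A1.2 it was 0.04 for Dcn, 0.08 for Omd and 0.11 for Ogn, and 1.12 for Fmod. Across the 9 samples, the pattern of log2 CPM most like that of Fmod within the family was that of Omd (Pearson r = 0.96, rank 80 of 14380 genes), followed by Prelp (0.925, rank 231). Those least like it were Dcn (0.70) and Lum (0.67). These correlations span 3 groups and share the libraries, so they restate the group differences. The 5 genes most like Fmod were Ptk7, a Wnt co-receptor, Lrig3, a membrane protein with leucine-rich repeats, the Notch ligand Jag1, the metalloprotease Mmp16 and the matrix protein Sparc, with r from 0.985 to 0.997. Their fold changes were far smaller, from -0.83 to -0.46 on the log2 scale in si mH2A1.1 samples and from 0.52 to 0.97 in si mH2A1.2 samples. Among the genes closest to Bgn were Ermard, Gm20554, Entpd4 and Ccbe1 (r = 0.99 for each). Aspn came 14th among the genes most like Bgn (r = 0.99) and Ogn 39th (0.98).

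No gene beside the clusters that is not itself of the SLRP list was called against controls. Few such genes were tested, so the absence of a call says little. With si mH2A1.1, 4.93% of all tested genes were called lower and 6.18% higher, and with si mH2A1.2, 0.982% and 1.37%. Echdc2 beside Podn and Haus7 beside Bgn came close with si mH2A1.1 (adjusted p = 0.0552 and 0.0574). On chromosome 1, Atp2b4 and Btg2, the nearest protein-coding genes outside Prelp and Fmod, had log2 fold changes of -0.41 and 0.27 for si mH2A1.1 (adjusted p = 0.311 and 0.274). For si mH2A1.2 they were -0.11 and 0.13 (0.883 and 0.759). Optc, a further SLRP gene beside Prelp, was at 0.508 ± 0.168 CPM in controls, 0.285 ± 0.154 in si mH2A1.1 samples and 1.14 ± 0.183 in those given si mH2A1.2. It passed between the knockdowns only (log2 fold change 1.97 ± 0.39, adjusted p = 0.00660). On chromosome 13, Ecm2, which precedes Aspn and encodes a related matrix protein, was estimated at -0.15 ± 0.15 on the log2 scale for si mH2A1.1 (adjusted p = 0.563) and rose with si mH2A1.2 by 0.88 ± 0.15 (0.0216). Cenpp, a centromere gene whose body spans this cluster on the other strand, was not called with either knockdown (adjusted p = 0.0605 and 0.871), and neither were Tes3-ps and Nol8 at the edges. On chromosome 10 Dcn and Lum are neighbours on the same strand, yet with si mH2A1.1 Lum fell 6.66-fold while the estimate for Dcn was 0.06 on the log2 scale. Epyc, the last SLRP gene of that cluster, had at most 8 counts in a library. Annotated exons of Aspn share 7 bases with those of Cenpp. Those of Prelp share 350 bases with the antisense gene Gm15851, which had at most 2 counts.

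**Figure D4:**
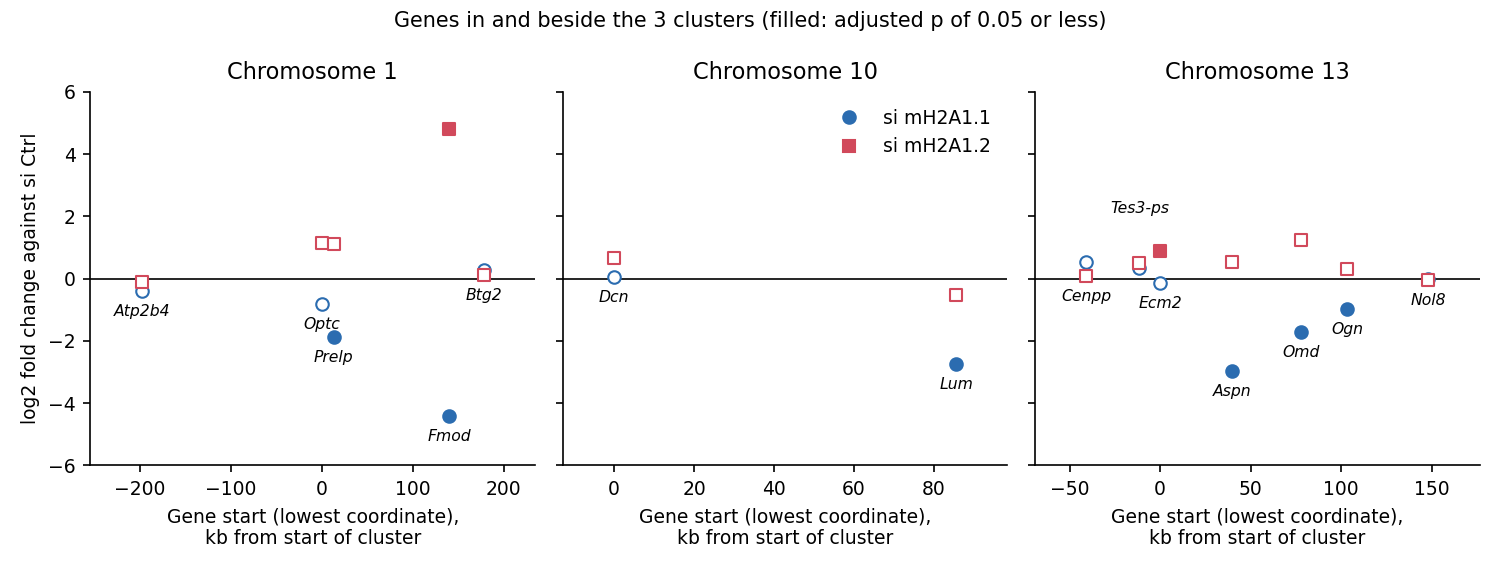
log2 fold changes against si Ctrl of genes in and beside the 3 SLRP clusters, by distance in kb of the gene's lower end from the start of the cluster; filled symbols have an adjusted p of 0.05 or less, and genes too low to test are left out, as is Btg1, which lies 857 kb from Dcn. Fmod, Prelp, Lum, Aspn, Omd and Ogn are filled below 0 for si mH2A1.1, and the flanking genes are not filled.

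Other SLRP and related genes were split. Of 9 listed, 7 were tested, and with si mH2A1.1 Podnl1, a relative of podocan, fell by 1.11 ± 0.25 on the log2 scale (adjusted p = 0.0234). Nyx, nyctalopin of the retina, rose by 2.45 ± 0.63 (0.0347) at levels of 0.236 ± 0.117 CPM in controls and 1.31 ± 0.904 CPM with the knockdown. These are 1 lower and 1 higher of the 7, where 4.93% and 6.18% of all tested genes were called. With si mH2A1.2 only Ecm2 was called, higher (1.37%). Between the knockdowns Optc, Podnl1, Tsku and Ecm2 were higher with si mH2A1.2 (10.5%), and Nyx was lower (12.0%).

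The collagens that these proteins bind were read as a list. Of 15 fibril genes 9 fell with si mH2A1.1 and 2 rose, against 4.93% and 6.18% of all tested genes. Col11a1, which sits in the core of fibrils, went from 9.99 ± 3.54 to 0.871 ± 0.370 CPM (log2 fold change -3.51 ± 0.36, adjusted p = 0.00148). Col1a1, the main chain of collagen I, went from 2945 ± 726 to 566 ± 288 CPM (-2.38 ± 0.37, adjusted p = 0.00558). Col6a1 and Col6a2, of the microfibrils around muscle fibres, fell as well, with log2 fold changes of -1.83 ± 0.28 and -1.65 ± 0.28. The rises were those of Eln (1.13 ± 0.28) and Col14a1 (1.96 ± 0.50). With si mH2A1.2 only Col12a1 was called, higher by 1.44 ± 0.31 (adjusted p = 0.0454), and the median over the list was 0.76. Between the knockdowns 12 of the 15 were higher with si mH2A1.2 and 2 lower, where 10.5% and 12.0% of all tested genes were called.

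The enzymes that build the sugar chains were read in 3 lists. Of 22 tested genes for the linker and for chondroitin and dermatan sulfate, 1 was called with si mH2A1.1, Chst11, a chondroitin 4-sulfotransferase, which rose by 0.51 ± 0.10 on the log2 scale (adjusted p = 0.0139). Of all tested genes, 6.18% were called higher there and 4.93% lower. With si mH2A1.2, 4 rose, Chst11 (0.51 ± 0.10), the dermatan epimerase Dse (0.56 ± 0.11), and Chsy1 and Chpf of chain elongation (0.47 ± 0.10 and 0.59 ± 0.13), and none fell, where 1.37% and 0.982% of all genes were called. Of the 10 tested keratan sulfate enzymes Fut8 (0.69 ± 0.13) and St3gal2 (0.33 ± 0.09) rose with si mH2A1.1, and Chst2 (0.98 ± 0.21) with si mH2A1.2. The share of all tested genes called higher was 6.18% in the first of these comparisons and 1.37% in the second. Among the 8 genes of sulfate and sugar supply only Ugp2 was called against controls, higher with si mH2A1.1 (0.84 ± 0.14), as were 6.18% of all tested genes. Between the knockdowns, 10 of the 22 were higher with si mH2A1.2 and 1 lower, as were 2 and 3 of the keratan sulfate enzymes and 1 and 1 of the supply genes. Of all tested genes 10.5% were called higher there and 12.0% lower.

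Proteases that process SLRPs or their collagens went both ways. Of 12 tested, 4 fell with si mH2A1.1, Adamts1 (-0.88 ± 0.12, adjusted p = 0.00415), Adamts5, Htra1 and Mmp2, and 2 rose, Mmp3 and Mmp13, where 4.93% of all tested genes fell and 6.18% rose. Mmp3, a stromelysin that can cleave decorin, had 0, 0 and 3 counts in controls and 84, 28 and 202 with si mH2A1.1, at least 30.8-fold higher against 3 counts a library. With si mH2A1.2, 2 rose, Mmp2 by 1.08 ± 0.23 and Mmp14 by 0.65 ± 0.12 (1.37% of all tested genes). Mmp2 was at 126 ± 29.9 CPM in controls, 68.1 ± 22.2 with si mH2A1.1 and 266 ± 3.84 in si mH2A1.2 samples. Between the knockdowns 7 were higher and 2 lower with si mH2A1.2, against 10.5% and 12.0% of all tested genes.

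Of 13 tested growth factors and receptors that SLRPs are known to bind, 4 fell with si mH2A1.1 and 1 rose (4.93% and 6.18% of all tested genes). Bmp4, at 9.38 ± 4.11 CPM in controls, showed a log2 fold change of -2.96 ± 0.39 (adjusted p = 0.00331). Ccn4, also named Wisp1, fell by 0.81 ± 0.14 with si mH2A1.1 and rose by 0.90 ± 0.14 with si mH2A1.2 (adjusted p = 0.00750 and 0.0138). For si mH2A1.1 the log2 fold changes of Tgfb3 and Igf1r were -0.50 ± 0.13 and -0.55 ± 0.15, and that of Tgfb2 was 0.63 ± 0.16. With si mH2A1.2 Egfr, a receptor that decorin binds, rose by 0.97 ± 0.19 (adjusted p = 0.0297), and myostatin, Mstn, which decorin also binds, was called lower (0.0265) on few counts, at 0.483 ± 0.0566 CPM in controls and 0.0450 ± 0.0558 CPM with the knockdown. In that comparison, 2 of the 13 were called higher and 1 lower, where 1.37% and 0.982% of all tested genes were called. Between the knockdowns 8 were higher with si mH2A1.2 and 1 lower (10.5% and 12.0%).

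**Figure D5:**
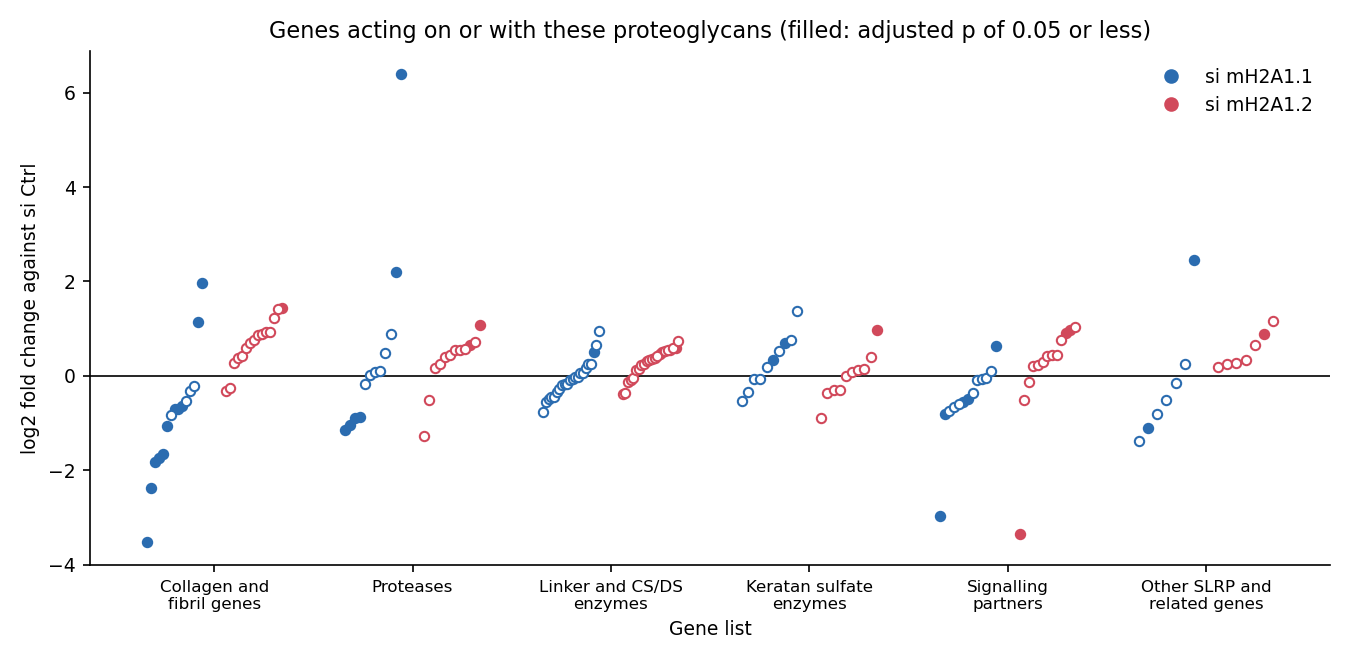
log2 fold changes against si Ctrl of tested genes in 6 lists of enzymes, proteases, fibril genes and partners of SLRPs, each point a gene, in order within a list; filled points have an adjusted p of 0.05 or less. In the collagen and fibril list 9 blue points are filled below 0 and 1 red point above it.

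SLRPs are also made by tenocytes, osteoblasts, chondrocytes and fibroblasts, so marker lists of such cells were read beside them. Of 4 tendon markers 2 were tested and none was called in any comparison. Of 6 osteoblast markers 4 were tested, and Runx2 was lower with si mH2A1.1 (-0.88 ± 0.23), where 4.93% of all tested genes were called lower. With si mH2A1.1, 2 of the 4 estimates were above 0 and 2 below. With si mH2A1.2, 1 was above 0 and 3 below (median -0.56). Between the knockdowns 1 was called higher with si mH2A1.2 and 1 lower (10.5% and 12.0% of all tested genes). The summed level of that list was 41.4 to 68.0 CPM in controls, 29.3 to 31.2 with si mH2A1.1 and 43.6 to 75.2 with si mH2A1.2. Only 1 of 5 cartilage markers was tested, Sox9, and it was not called. The defining markers Acan and Ibsp had at most 1 count in a library, and Tcf21 and Adipoq at most 2. Of 6 fibroblast markers 5 were tested, and Dpt, dermatopontin, rose with si mH2A1.2 (1.74 ± 0.36, adjusted p = 0.0365), where 1.37% of all tested genes were called higher. Dpt was at 8.91 ± 3.04, 3.83 ± 1.92 and 29.7 ± 8.37 CPM in the control, si mH2A1.1 and si mH2A1.2 samples. The summed level of the fibroblast list was 260 to 452 CPM in controls, 422 to 577 with si mH2A1.1 and 238 to 408 with si mH2A1.2. That sum did not follow most of the genes. With si mH2A1.1, 3 of the 5 estimates were below 0 (median -0.18), and with si mH2A1.2, 3 were above 0 (median 0.53). Between the knockdowns 2 were called higher with si mH2A1.2 and 1 lower (10.5% and 12.0% of all tested genes). Of the myoblast markers Myf5 was lower with si mH2A1.2 (-0.84 ± 0.18), where 0.982% of all tested genes were called lower. None of the 4 was called with si mH2A1.1. Their summed level was 210 to 267 CPM in controls, 285 to 403 with si mH2A1.1, without overlap, and 156 to 219 with si mH2A1.2. All 4 estimates were above 0 with si mH2A1.1, with a median of 0.49 on the log2 scale. Of the 4, 3 (Myf5, Pax7 and Mki67) were called lower with si mH2A1.2 than with si mH2A1.1, as were 12.0% of all tested genes. No adipocyte or endothelial marker was called, their sums being at most 15.4 and 1.41 CPM. Of the macrophage markers only Cd68 was tested, which was higher with si mH2A1.1 (1.62 ± 0.25), where 6.18% of all tested genes were called higher. Whether these shifts or a change in the mix of cells bear on the SLRP levels was not tested.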

How the data were processed

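Polyadenylated RNA was sequenced as single reads. According to the study's methods, the authors quantified genes with Salmon on GRCm38; the deposited expected counts are Salmon estimates, rounded and not normalized. The other deposited table holds a normalized signal, the same counts divided by 1 factor per sample, and was used only to check that. The members and gene lists were chosen with earlier results of these data known. Symbols, positions and transcripts came from GENCODE M21, which matched 52762 of 52780 genes. Counts were tested in edgeR 4.0.16 (R 4.3.3) by the quasi-likelihood test with TMM, filterByExpr and all 9 samples in 1 model, and called at an adjusted p of 0.05 or less. Alternatives were other size factors, no filter, DESeq2 1.42.0, a replicate block, only the samples of a comparison, a stricter threshold and leaving out each sample; exon-union lengths were added after seeing the data. The fits were tested on simulated counts. Deviations from group means of same-numbered si Ctrl and si mH2A1.2 samples correlated at 0.33, 0.29 and 0.20, all above 0.1, so the labels' replicate numbers were taken to pair these groups. Named genes were all members, H2afy, flanking genes, the 5 genes most correlated with Fmod and with the most abundant member, and up to 4 genes per list by p; Eln, Col14a1, Mmp2, Mmp13 and Igf1r were added after their values were seen, and 1 gene that the rule names is not reported here. Intervals of fold changes come from the edgeR fit and carry the spread between samples; the floor of 3 counts covers counting error only. Proteins were aligned globally in Biopython 1.88 with BLOSUM62.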

Additional observations from a re-analysis of the deposited data

How the results depend on the processing

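Fmod left out, 7 of the 8 tested members were called lower for si mH2A1.1 against controls, where 4.93% of all tested genes were. For si mH2A1.2 against controls 0 were called (1.37% of all tested genes higher), and between the knockdowns 7 were higher with si mH2A1.2 (10.5%). Leaving out each sample gave 4 to 7, 0 to 2 and 7 to 8 of these members. Fmod itself missed the threshold for si mH2A1.1 without control replicate 2 (adjusted p = 0.0592) and without si mH2A1.1 replicate 1 (0.0765) or 3 (0.0714). The stricter threshold (adjusted p below 0.01 and a change of 0.8 or more on the log2 scale) left 3 in the first comparison. In the second, 1 member other than Fmod was called with no filter, with DESeq2 and with the replicate block, and 3 with only its own samples. Over all tested genes the calls were 2171, 460 and 4397. DESeq2 gave 3354 in the first and 1113 in the second, the replicate block 4065 and 1005, and the stricter threshold 352, 35 and 1247. Leaving out a sample gave 605 to 2928, 74 to 544 and 2251 to 4616; it also leaves fewer samples. The log2 fold change of Dcn with si mH2A1.1, 0.06, changed sign without control replicate 1 (-0.05) and without si mH2A1.1 replicate 2 (-0.24), and ranged from -0.24 to 0.30. Of 135 member fold changes under alternatives that keep all samples of a comparison, 125 kept direction and call, 9 gained a call and 1 lost it; of 243 with a sample left out, 220 did, 4 gained, 17 lost and 2 changed sign. In these other cases the cause was not tested. Same-numbered samples correlated at 0.09, 0.08 and 0.10 between si Ctrl and si mH2A1.1 and at 0.09, 0.10 and 0.12 between the knockdowns. Not all of these values pass 0.1, so the numbers were not taken to pair these groups. That cut is narrow, and each of the 9 samples correlated best with a sample of its own number. The deposited sample names also run in sequence within a replicate number. Pairing of all 3 groups thus remains possible, and the main fit has no block for it. In the paired comparison the block changed no call of a member but that of Omd; between the knockdowns Dcn gained a call with it (adjusted p = 0.0233). Podn, Omd and Fmod with si mH2A1.1 rest on few counts.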
